A study of Mus musculus with 6 samples.

Results

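The mir-297, mir-466, mir-467 and mir-669 families are miRNAs found in rodents and rich in repeated dinucleotides. They were taken here as every precursor entry of the deposited table whose name starts with one of these 4 names, which gave 80 of the 1006 entries, with 42 distinct names once copy numbers are dropped. There were 6 entries of mir-297, 29 of mir-466, 17 of mir-467 and 28 of mir-669. Of the 80, 17 had a mean normalized expression value of 10 or more over the EV libraries and entered the test of shear stress, and the other 63 did not. The study sequenced small RNA of 6 libraries: 1 of mouse primary osteoblasts (OB), 1 of mouse primary bone marrow cells (BM), and 2 each of the extracellular vesicles Myo-EVs and FFSS-Myo-EVs. Both kinds of vesicle were pelleted from medium of the mouse myoblast line C2C12, which for FFSS-Myo-EVs stood on an orbital shaker to receive fluid flow shear stress (FFSS). Both cultures were grown in medium with EV-depleted serum. Mice had a background of 81.25% C57BL/6J and 18.75% 129/SvJ. The labels give an age of 8 to 10 weeks for OB and BM. The methods describe bone marrow from the tibiae of a single male of 8 weeks, but osteoblasts pooled from calvariae of newborn males. The growth text in the labels names vitamin D and dexamethasone and not FFSS, which stands only in the titles and the stress field.

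Most of these miRNAs are transcribed from one long array in an intron of Sfmbt2, a Polycomb group gene that is imprinted and expressed from the paternal copy in the mouse placenta. Each unit of the array carries related hairpins that were copied many times during rodent evolution, so that the precursors of one family are close relatives. miR-669a is known in mouse heart progenitor cells as a repressor of MyoD, the master regulator of the muscle lineage.

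All 80 members were placed on GRCm38, the mm10 build named in the labels. The cluster held 71 of them in introns of Sfmbt2 (chromosome 2, 10370510 to 10595253, plus strand), and none of the 71 overlapped an exon. It ran from 10466663 to 10518279, a length of 51.6 kb, with a median of 296 bases between neighbouring starts. Within it lay 28 mir-669, 24 mir-466, 14 mir-467 and 5 mir-297 entries. The other 9 lay on 7 other chromosomes, among them mir-466i, which lies on chromosome 13 from 17747473 to 17747593 with no host gene in the annotation, and mir-466q, which lies on chromosome 3 in an intron of Tnik.

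Mature sequences from RefSeq (GRCm38.p6) were matched for 7 members, all of them outside the Sfmbt2 cluster. They are shown because they let the repeat structure of the families be read directly, with the seed (bases 2 to 8) in capitals, and miR-574-5p follows as a repeat-bearing miRNA outside the families.
miR-466i-3p: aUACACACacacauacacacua
miR-466q: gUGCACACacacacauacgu
miR-467f: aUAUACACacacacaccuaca
miR-467g: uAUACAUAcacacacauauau
miR-466k: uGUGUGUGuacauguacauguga
miR-466j: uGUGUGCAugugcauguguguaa
miR-467h: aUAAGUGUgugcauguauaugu
miR-574-5p: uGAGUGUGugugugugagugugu
Each of the first 4 holds a run of CA and each of the next 3 a run of UG, its complement, together with other bases. No seed was shared among the 7. Outside the families, a seed was shared with 1 listed miRNA, as miR-668-5p carries the seed of miR-467h, and the mir-668 entry had 0 counts in the 4 EV libraries.

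The precursors showed the same structure. The hexamer TGTGTG or its reverse complement CACACA, looked for on the precursor strand, occurred in all 80 member precursors, against 7.55% of the 914 other entries with an annotated precursor. Their median GC content was 36.3%, against 52.2% for the others. A stretch of 18 bases was shared with at least 1 other member by 78 of the 80 precursors, with mir-466g and mir-669g as the exceptions. Annotated genes that are not miRNAs also carry such stretches. The number of these genes was 2660 for mir-466i, 425 for mir-669c, 294 for mir-466f-2 and 18 for mir-467d, the host gene included where it holds the stretch. The authors' text does not state how reads that match several precursors were counted, so a value given below for 1 entry may hold reads of its relatives or of other repeat-bearing transcripts. In the 10 copies of mir-467a, the counts ran from 143 to 156 in OB and from 94 to 110 in BM, and their variance was 0.119 and 0.198 times their mean. Independent counts vary by about as much as their mean, so the 10 entries varied less than separate counts would and are not 10 measurements.

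The families were a small part of every library. Total counts were between 2414132 and 6092460 per library, and the members took 0.0795% of them in OB, 0.0834% in BM, but only 0.0220% to 0.0262% in Myo-EVs and 0.0322% to 0.0364% in FFSS-Myo-EVs. The cell labels were checked with marker miRNAs, of which 14 of 15 were listed. In BM, the leukocyte miRNA mir-223 had a normalized expression value of 9710.3, against 122 in OB and at most 7 in EVs. The muscle miRNA mir-206 lay between 1968.5 and 2610 in EVs, and mir-199a-1, abundant in mesenchymal cells, reached 87356 in OB, against 2013.7 in BM. Not every marker followed its label. The muscle entries mir-1a-1 and mir-1a-2 had 30.6 and 31.4 in BM but at most 6 in EVs. The muscle entry mir-133a-1 had 19.1 and 19.2 (Myo-EVs) and 10 and 4.4 (FFSS-Myo-EVs), against 9.4 in OB and 1.2 in BM. For mir-133a-2 the values were 17.1 and 20.4 (Myo-EVs) and 6 and 4.4 (FFSS-Myo-EVs), against 8.3 in OB and 0.8 in BM. Both were thus above OB in Myo-EVs but not in every FFSS-Myo-EV library. Of the other mesenchymal entries, mir-199a-2 and mir-214 were highest in OB. In contrast, mir-143 and mir-145a, with 269506 and 16583.5 in OB, were higher in all 4 EV libraries, at 274482 and 21558.8 or more. Normalized expression values are the authors' counts multiplied by 1 constant per library. Since sources do not name separate cultures behind the replicate libraries, p-values measure the spread between these libraries, which may be technical. The main edgeR fit used below took this spread as shared among entries of similar level, as its prior degrees of freedom were infinite. A member's own spread between replicates thus had no separate weight in its p-value.

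In EVs, one member stood far above the rest. The entry mir-669c, which lies in the Sfmbt2 cluster from 10509296 to 10509404, had normalized expression values of 211 in OB (95% interval 190.3 to 233.2) and 174.8 in BM (158.8 to 191.9), while the Myo-EV libraries had 289.1 and 235.9 and the FFSS-Myo-EV libraries 292.9 and 300.1. All 4 EV libraries were thus above both cell libraries on the authors' scaling. The EV mean was 1.32 times OB and 1.60 times BM. It was 1.29 and 1.32 times with CPM, that is, counts scaled to one common library total, but 0.895 and 1.11 times with median-of-ratios scaling over the 6 libraries, so its order against OB depended on the scaling. Next in EVs came mir-467e with 34.1 and 26.3 (Myo-EVs) and 49.8 and 50.9 (FFSS-Myo-EVs), followed by mir-467c with 31.1 and 21.6 (Myo-EVs) and 46.8 and 43.2 (FFSS-Myo-EVs). The spread over the EV libraries was 279.5 ± 29.4 (SD, n = 4) for mir-669c, 40.3 ± 12.1 (SD, n = 4) for mir-467e and 35.7 ± 11.5 (SD, n = 4) for mir-467c, each with the difference between the EV groups in its SD. In each of the 4 EV libraries mir-467e was above mir-467c, by 3 to 7.7, a mean difference of 4.60 ± 2.22 (SD, n = 4). Of the 80 members, 6 had an EV mean of 20 or more and 2, mir-669g and mir-669k, had no count in any EV library. A count of 0 allows a value of up to 2.99 to 3.59 in the 4 EV libraries, taken at 3 counts. Intervals and these limits cover counting error alone, since reads amplified by PCR and not tagged with molecular identifiers are not independent molecules.

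**Figure D1:**
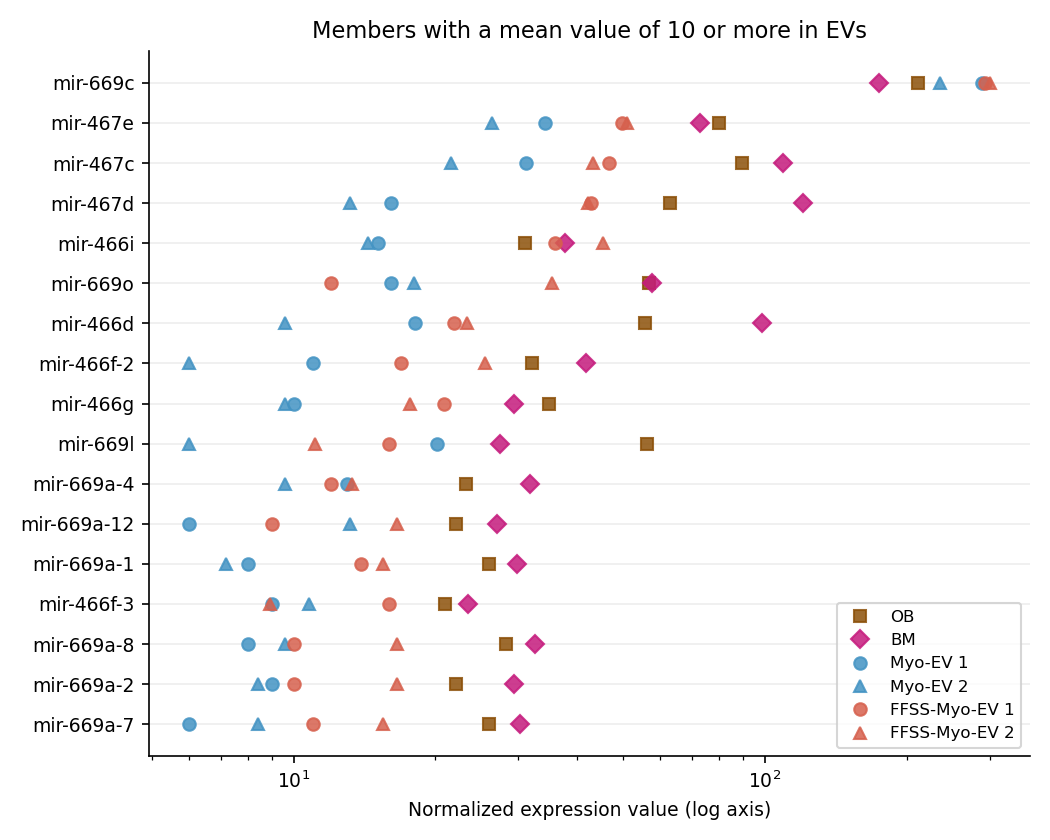
Normalized expression value (log axis) of the 17 members with a mean of 10 or more in EVs, with 1 point per library. The entry mir-669c lies at 235.9 or more in all EV libraries and to the right of OB and BM, while most other members lie to the left of both cells.

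The reverse order was found for nearly all other members of that level in EVs, and for most of the 80. Among the 17 members with an EV mean of 10 or more, all 4 EV libraries were below both OB and BM in 15, a share of 88.2%, against 20.9% of the 354 entries of that level. Several of the 17 are copies of mir-669a, which may hold the same reads, so they are not 17 separate measurements. The EV mean was above both cells in 1 of the 17, mir-669c, against 54.8% of the 354. The median ratio of EVs to OB was 0.453 and that of EVs to BM 0.374 over the 17, against 1.81 and 1.92 over the 354. OB and BM are 1 library each, so these comparisons have no replicate check, and no test was made. Over all 80 members, which includes those low in EVs, the medians were 0.377 and 0.355, against 0.693 and 0.650 over the 1006 entries, with 3 counts in place of a lower cell count. All 4 EV libraries were below both cells in 55 of the 80, or 68.75%, against 18.4% of the 1006. The EV mean was above both cells in 7 of the 80, or 8.75%, against 45.7%.

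Lowest against OB were mir-669l, at 0.236 times, mir-466d, at 0.327 times, and mir-669o, at 0.358 times. The entry mir-466d had a value of 55.8 in OB (45.4 to 67.8), 98.5 in BM (86.6 to 111.6), 18.1 and 9.6 (Myo-EVs), and 21.9 and 23.3 (FFSS-Myo-EVs). Every EV library was thus under both intervals, and the ratio to BM, 0.185, was the lowest of the 17. Against BM it was followed by mir-467d, at 0.237 times, and mir-467c, at 0.327 times. Nearest to the cells after mir-669c was mir-466i, whose EV mean was 0.896 times OB and 0.735 times BM. Its values were 30.9 in OB (23.4 to 40.2) and 37.7 in BM (30.5 to 46.1), within the range of its EV libraries. The entry mir-466f-3 followed against OB, at 0.531 times, and mir-467e against BM, at 0.554 times.

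Summed by family, the gap to OB was widest for mir-467 and the gap to BM was widest for mir-297. The 17 mir-467 entries summed to 1108.6 in OB and 789.5 in BM, while Myo-EVs had 146.3 and 123.5, and FFSS-Myo-EVs 245.4 and 235.8. The EV mean was 0.169 times OB and 0.238 times BM, and every EV library was below both cells. With the mir-467a copies counted once, the family summed to 376.3 in OB, 419.8 in BM and 129.7 ± 48.7 (SD, n = 4) in EVs, so the ratios were 0.345 and 0.309. The mir-466 entries summed to 343.1 in OB, 403 in BM and between 102 and 223.6 in EVs, 0.480 and 0.408 times the cells. The mir-297 entries, with 40.8 in OB and 79.4 in BM, lay between 9.6 and 24.3 in EVs, 0.441 and 0.226 times the cells, and the highest of them in EVs, mir-297b, had an EV mean of 9.75, just under the level of 10, above which mir-669a-7 came first with 10.2. The mir-669 entries were closest, with 782.2 in OB, 747.8 in BM and between 400.3 and 588.1 in EVs. Without mir-669c, they summed to 571.2 in OB, 573 in BM and 208.8 ± 55.7 (SD, n = 4) in EVs. With every entry counted, all 4 family sums were below both cells in every EV library, also with CPM and with median-of-ratios scaling. When each name was counted once, the mir-669 sum was 415.3 in the second FFSS-Myo-EV library, above BM at 399.3. Its EV mean was then 0.929 times BM, and the other families stayed below both cells on the authors' scaling. With 1 entry kept per name, the sum over the families was 1129.1 in OB, 1188.2 in BM and 640.9 ± 147.6 (SD, n = 4) in EVs, so counting the copies once narrowed the ratio to OB from 0.377 to 0.568 and that to BM from 0.425 to 0.539.

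**Figure D2:**
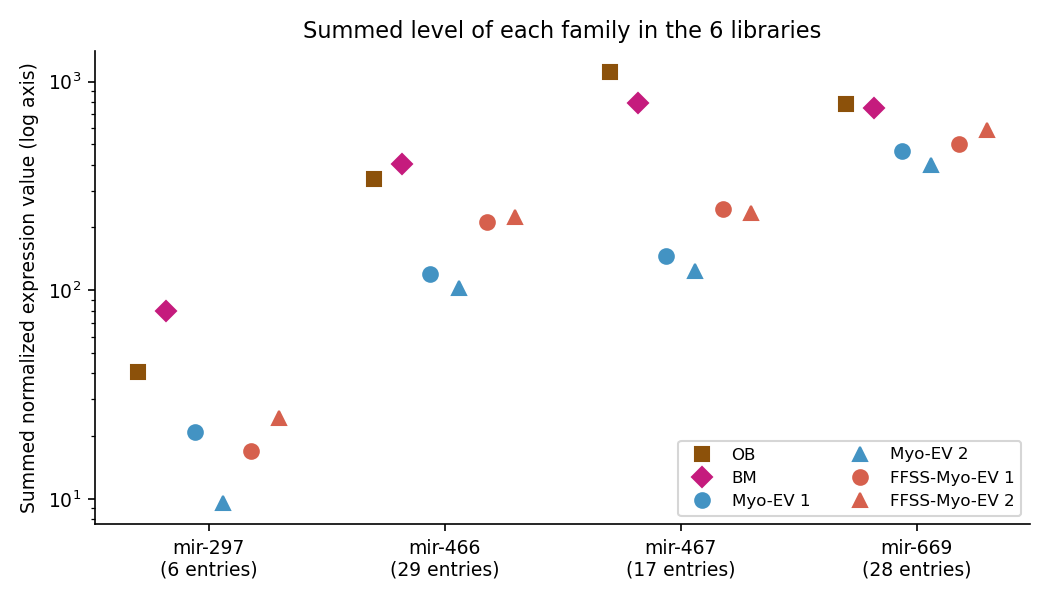
Summed normalized expression value (log axis) of the entries of each family, with 1 point per library. The mir-467 sums lie between 123.5 and 245.4 in EVs and at 1108.6 and 789.5 in OB and BM, the widest gap to OB, and the mir-669 sums lie closest together.

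OB and BM held the members in different proportions. The 10 copies of mir-467a, described here after their values were seen, took 35.7% of all member counts in OB, 20.4% in BM and between 6.61% and 8.50% in EVs. In contrast, mir-669c took 9.28% in OB, 8.65% in BM and between 28.0% and 38.3% in EVs. As shares of all counts, the mir-467 family had 387 CPM in OB (95% interval 371 to 405) and 326 in BM (312 to 341), but this order rested on the mir-467a copies. The OB to BM ratio of its summed values was 1.40 with every entry, 0.896 with 1 entry per name and 0.781 over the 7 entries that are not mir-467a. The mir-466 family had 120 CPM in OB (111 to 130) and 166 in BM (156 to 177), and the mir-297 family had 14.3 (11.2 to 17.9) and 32.8 (28.4 to 37.7). These intervals take every count as a separate read, so they are too narrow where a read was counted in several copies. They do not overlap between the cells, and the direction was the same under the 3 scalings. For mir-466 and mir-297, it was also the same with 1 entry per name. All 6 mir-297 entries were higher in BM. Of the mir-467 entries, the 10 copies of mir-467a were higher in OB, whereas 5 of the other 7 were higher in BM, among which mir-467d had 63 in OB (51.9 to 75.6) and 120.7 in BM (107.6 to 135.1). For the mir-669 family, the order of the cells changed with the scaling, with an OB to BM ratio of 1.05 on the authors' values and 0.885 with CPM.

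**Figure D3:**
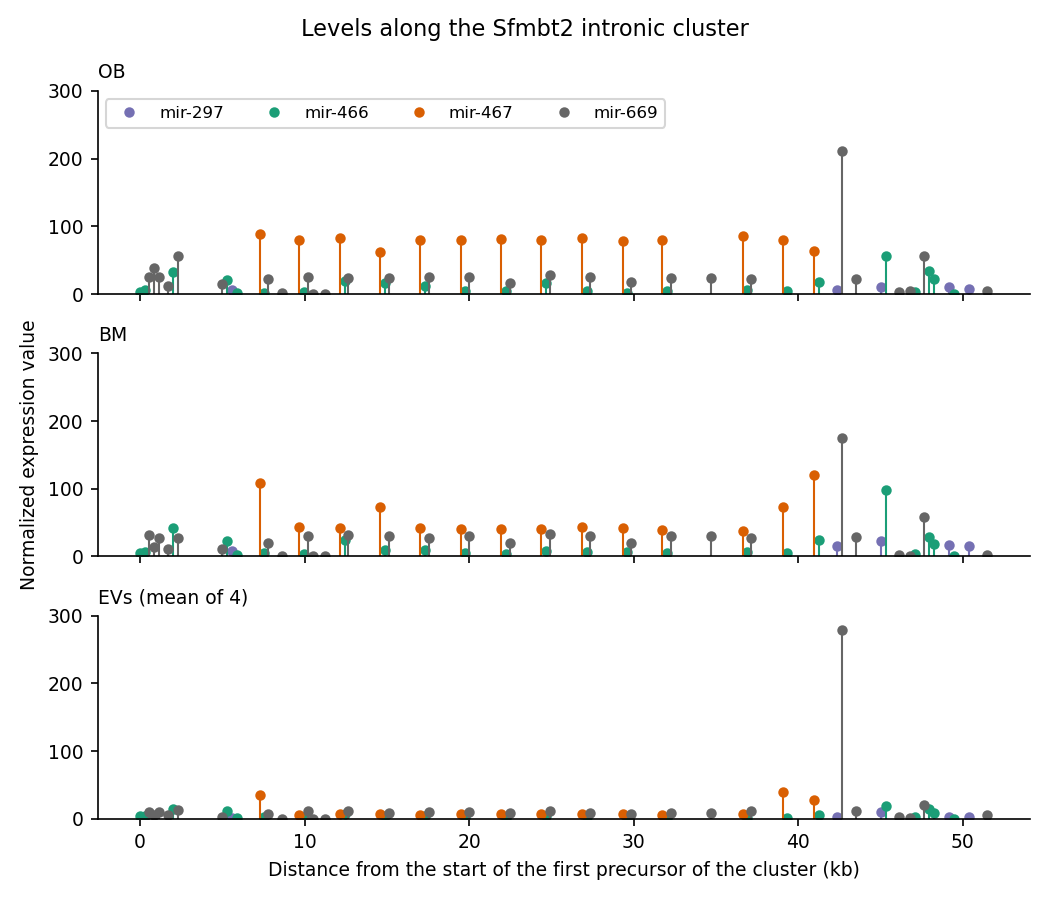
Normalized expression value of the 71 members in the Sfmbt2 cluster against the distance (kb) from the start of the first precursor, in OB, in BM and as the mean of the 4 EV libraries, coloured by family. A row of near-equal mir-467 entries stands out in OB, and in EVs mir-669c alone lies above 40.3, the level of mir-467e.

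The question of the EV libraries was what FFSS changed. Relative to Myo-EVs, mir-467d and the mir-466 members mir-466i and mir-466f-2 were higher in FFSS-Myo-EVs, by 1.13 to 1.39 on the log2 scale, and mir-669c had a value of 0.04. Of the 17 members tested, 3 rose and 0 fell under an adjusted p of 0.05, by the quasi-likelihood test of edgeR with Benjamini-Hochberg adjustment across the 354 entries, and 3 had an unadjusted p under 0.05. Over all 354, 12.1% were called higher and 18.4% lower, so 3 of 17, or 17.6%, lay near the background for increases. The members' log2 fold changes had a median of 0.54, against -0.02 over all entries, and 16 of the 17 were above 0, against 47.7% of all entries. With 1 entry kept per name, 10 of 11 members were above 0, against 163 of 318 entries. By family, 2 of 5 mir-466 members, 1 of 3 mir-467 members and 0 of 9 mir-669 members were called, with median log2 fold changes of 0.85, 0.63 and 0.32. Over all entries 43 were called higher and 65 lower, but 54 and 39 on the authors' scaling, which shifted the median of all entries by 0.12 on the log2 scale relative to TMM, and 49 and 46 with library totals.

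For mir-467d, the Myo-EV libraries had 16.1 and 13.2 and the FFSS-Myo-EV libraries had 42.8 and 42.1. Both FFSS-Myo-EV libraries were far above both Myo-EV libraries, on 11 to 43 counts per library. The log2 fold change was 1.39 ± 0.40 (standard error; edgeR adjusted p = 0.00308), and it was called in all 13 alternative analyses that tested it, with adjusted p from 0.000347 to 0.0406. The precursor lies in the Sfmbt2 cluster from 10507630 to 10507714.

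For mir-466i, Myo-EVs gave 15.1 and 14.4 and FFSS-Myo-EVs gave 35.9 and 45.4. The groups did not overlap, and the log2 fold change was 1.32 ± 0.40 (edgeR adjusted p = 0.00539). Adjusted p ran from 0.000878 to 0.0650 over the alternatives, and the call held in 11 of 13 but not without the second FFSS-Myo-EV library (adjusted p = 0.0650) or in DESeq2 (adjusted p = 0.0587). As its mature sequence above shows, this miRNA is an almost pure CA repeat, and 2660 genes hold a stretch of its precursor.

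The entry mir-466f-2 had 11 and 6 (Myo-EVs) and 16.9 and 25.5 (FFSS-Myo-EVs), from 5 to 23 counts. The groups did not overlap, but the spread within them was wide, with means of 8.50 ± 3.54 (SD, n = 2) and 21.2 ± 6.08 (SD, n = 2). Its log2 fold change was 1.13 ± 0.45 (edgeR adjusted p = 0.0413). The call was lost in 4 of 13 alternatives, in DESeq2 (adjusted p = 0.303), with no filter on low entries (edgeR adjusted p = 0.128), without the second Myo-EV library (adjusted p = 0.224) and without the second FFSS-Myo-EV library (adjusted p = 0.270), and the lowest adjusted p among them all was 0.0197.

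The other members did not pass. The log2 fold changes of mir-467e and mir-467c were 0.60 ± 0.36 (edgeR adjusted p = 0.217) and 0.63 ± 0.37 (edgeR adjusted p = 0.196), although the groups did not overlap in either. The largest value of the mir-669 family was that of mir-669a-1, at 0.81 ± 0.47 (edgeR adjusted p = 0.198), with 8 and 7.2 (Myo-EVs) and 13.9 and 15.5 (FFSS-Myo-EVs). The copy mir-669a-7 had 0.75 ± 0.48 and mir-466f-3, the lowest of the tested mir-466 entries, 0.23 ± 0.46. For mir-669c, on 197 to 294 counts per library, the log2 fold change was 0.04 ± 0.18 (edgeR adjusted p = 0.905). The replicates of mir-669l and mir-669o lay far apart. The entry mir-669l had 20.1 and 6 (Myo-EVs) and 15.9 and 11.1 (FFSS-Myo-EVs), at -0.12 ± 0.44, and mir-669o had 16.1 and 18 (Myo-EVs) and 12 and 35.4 (FFSS-Myo-EVs), at 0.32 ± 0.41. The groups overlapped in both. Separate groups with FFSS-Myo-EVs on top were found for 12 of the 17 members on the authors' scaling, where 36.7% of all entries were so, and for 11 on TMM-scaled values, where 26% were. The opposite order was found for 0 of the 17, against 23.7% and 32.5%. The 17 include several copies of mir-669a, which may hold the same reads, so these are not counts of separate measurements.

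**Figure D4:**
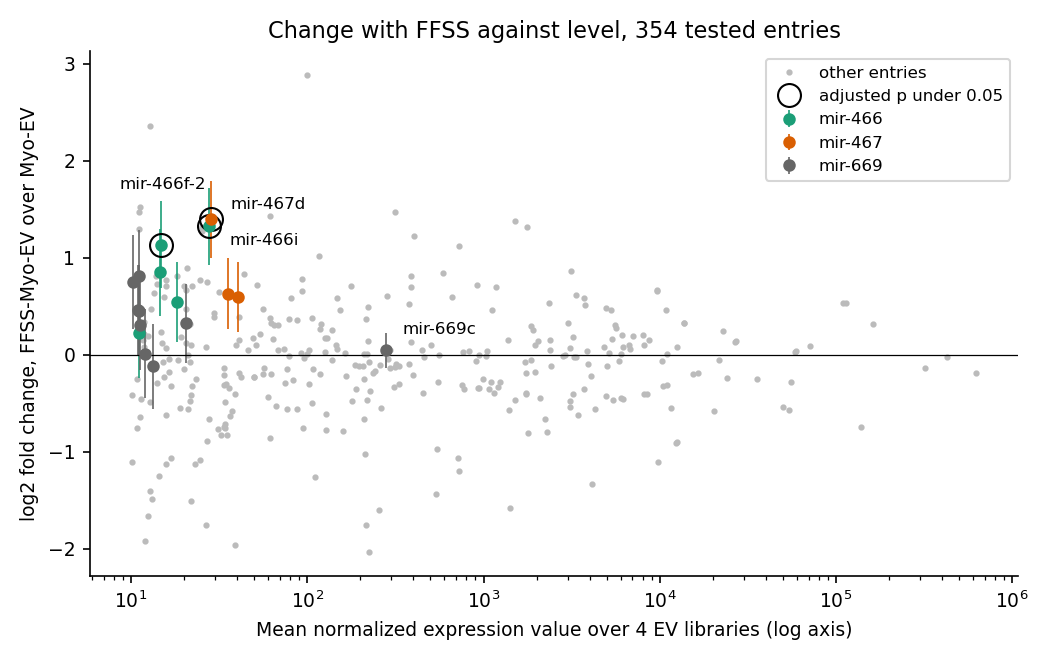
log2 fold change of FFSS-Myo-EVs over Myo-EVs in edgeR against the mean normalized expression value over the 4 EV libraries (log axis), for 354 entries, with members coloured by family and bars of 1 standard error. Circles mark mir-467d, mir-466i and mir-466f-2, and mir-669c sits at 0.04.

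The summed levels gave the same order of the families. Over all 80 entries, the Myo-EV libraries summed to 752.8 and 635.4 and the FFSS-Myo-EV libraries to 974.4 and 1071.8. The ratio of the means was 1.47, and 1.34 with TMM-scaled counts. The ratio was 1.96 for mir-466, 1.78 for mir-467, 1.26 for mir-669 and 1.35 for mir-297. On the authors' scaling the groups were separate in the first 3 and overlapped for mir-297. With TMM-scaled counts the mir-669 groups overlapped too, so their separation depended on the scaling. Without mir-669c, the ratio over the members was 1.68. The smallest two-sided p that an exact permutation of 2 and 2 libraries can give is 0.333. On the authors' scaling, this was the permutation p of the whole sum and of the mir-466, mir-467 and mir-669 sums, and that of the mir-297 sum was 0.667.

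A comparison that no scaling can change is that between members of the same library. For each count of mir-669c, the other 79 members had 1.61 and 1.69 counts (Myo-EVs) and 2.32 and 2.57 counts (FFSS-Myo-EVs), against 9.78 in OB and 10.6 in BM. The means were 1.65 ± 0.0585 (SD, n = 2) and 2.45 ± 0.176 (SD, n = 2), 1.48-fold apart and separate, at the smallest exact permutation p of 0.333. With 1 entry per name, the ratios were 1 and 0.964 in Myo-EVs, 1.51 and 1.62 in FFSS-Myo-EVs, 4.35 in OB and 5.80 in BM. The share of mir-669c among the member counts was thus larger in EVs than in either cell, and smaller in both FFSS-Myo-EV libraries than in both Myo-EV libraries.

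**Figure D5:**
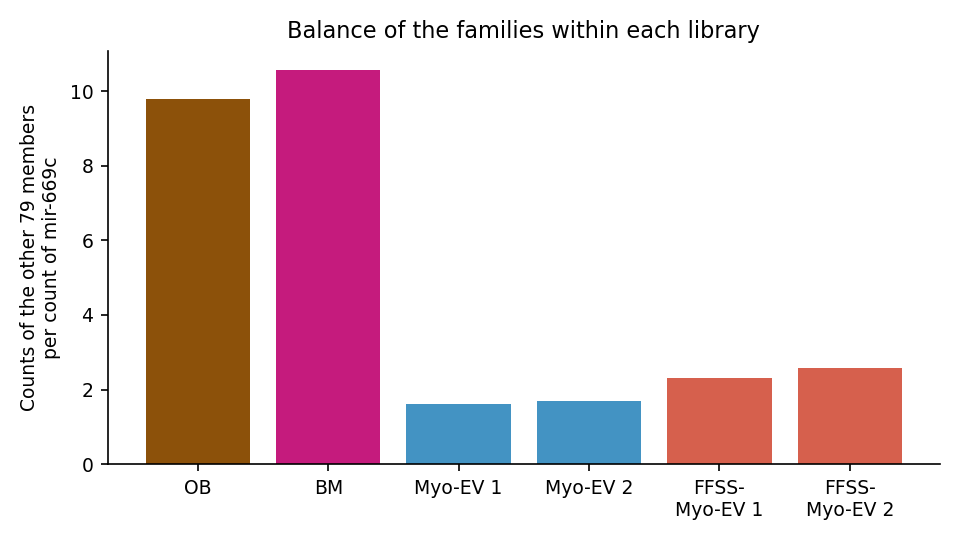
Counts of the other 79 members per count of mir-669c in each library, with bars from 0. OB and BM reach 9.78 and 10.6, the Myo-EV libraries 1.61 and 1.69 and the FFSS-Myo-EV libraries 2.32 and 2.57.

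Some markers of blood cells were also higher in FFSS-Myo-EVs. The leukocyte and erythroid miRNAs on the marker list that were found in the table, mir-223, mir-150, mir-144 and mir-451a, summed to 11 and 9.6 (Myo-EVs) and 43.9 and 34.3 (FFSS-Myo-EVs), against 11281.2 in BM and 126.5 in OB, and mir-144 was at 0 in the second Myo-EV library and mir-223 likewise. As a share of the level in BM, the increase from Myo-EVs to FFSS-Myo-EVs was 0.0592% for mir-223, 1.29% for mir-451a, 1.81% for mir-150 and 3.36% for mir-144, and it was 23.0% for mir-467d, 68.7% for mir-466i and 30.5% for mir-466f-2. Of these 4 markers, mir-451a was high enough in EVs to be tested and rose (log2 fold change 2.36 ± 0.52, edgeR adjusted p = 6.79e-05). The miRNAs mir-342, mir-486a and mir-486b, added after their values were seen, were more abundant in EVs than these markers and did not pass. They are less particular to BM than the 4 markers, with 8270.1, 421.4 and 440.5 in BM and 545.6, 64.1 and 79.5 in OB. Their log2 fold changes were -0.20 ± 0.31 for mir-342, -0.04 ± 0.28 for mir-486a and 0.04 ± 0.27 for mir-486b (edgeR adjusted p = 0.707, 0.942 and 0.935). The part of blood-cell RNA in the members' values was not tested.

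Members outside the Sfmbt2 cluster and those within it were also summed apart. The 9 outside summed to 49.3 in OB and 54.5 in BM, 30.1 and 33.6 (Myo-EVs) and 67.9 and 89.6 (FFSS-Myo-EVs). These sums rest on few counts. The 71 inside summed to 2225.4 in OB and 1965.2 in BM, 722.7 and 601.8 (Myo-EVs) and 906.5 and 982.2 (FFSS-Myo-EVs). For the 9 outside, the FFSS-Myo-EV mean was 2.47 times the Myo-EV mean, against 1.43 times for the 71 inside. The 71 include mir-669c, which changed little, and the ratio over all members without mir-669c, the 9 outside included, was 1.68. The share of the 9 outside among all member counts was 2.16% in OB, 2.69% in BM, 3.99% and 5.28% (Myo-EVs), and 6.96% and 8.37% (FFSS-Myo-EVs). This share does not depend on scaling. Without mir-466i, the other 8 had 0.801% in OB, 0.826% in BM, 2.00% and 3.02% (Myo-EVs), and 3.28% and 4.13% (FFSS-Myo-EVs).

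Outside the families, 69 entries hold TGTGTG or CACACA in their precursor, and 28 of them were tested. Of these, 4 were called higher and 5 lower, with a median log2 fold change of -0.02. Of a shorter list of mir-574, mir-1187 and the seed relative mir-668, only mir-574 was high enough to be tested. It rose from 403.5 and 462.3 (Myo-EVs) to 942.4 and 1111.9 (FFSS-Myo-EVs), by 1.12 ± 0.13 on the log2 scale (edgeR adjusted p = 6.12e-15). Its level was 2116.8 in OB and 455.2 in BM. The entry mir-1187 had 2 and 9.6 (Myo-EVs) and 7 and 8.9 (FFSS-Myo-EVs), so that its groups overlapped.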

How the data were processed

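With CLC Genomics Workbench, the authors collapsed identical reads, annotated them against miRBase and deposited 2 values per precursor entry and library. The deposited counts are whole numbers without normalization. The deposited normalized expression value is a signal that the authors made by conversion to a common total and scaling by trimmed means. The mm10 build comes from the submitters' processing notes, and the miRBase release is not given in the sources used here. FFSS-Myo-EVs and Myo-EVs were compared by edgeR 4.0.16 (R 4.3.3) from deposited counts, without OB and BM (TMM factors, quasi-likelihood test, Benjamini-Hochberg adjustment over 354 entries with a mean normalized value of at least 10). The script was tested on simulated data. Alternatives used DESeq2 1.42.0, limma 3.58.1 with pseudocounts of 1 and 10, other scalings and filters, a replicate block, 1 entry per name and each library left out. Cell levels have exact Clopper-Pearson 95% intervals. Python 3.11.15 and scipy 1.17.1 were used. Positions came from RefSeq and GENCODE M21 on GRCm38, with mir-466a at the locus listed as Mir466, and precursor features from the annotated transcripts. Members named were the 5 highest in EVs, all called, the extremes of change and of the EV to cell ratio, the highest of each family and those beside the level of 10. Members and lists were chosen with earlier results of these data known.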

Additional observations from a re-analysis of the deposited data

How the results depend on the processing

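Of the 17 members tested, 3 were called with median-of-ratios factors, library totals, the authors' scaling, limma at either pseudocount and 1 entry per name, and 4 of 78 without a filter. DESeq2 called 1, and a mean of at least 100 left 1 member, mir-669c, and 0 calls. Leaving out each library gave 1 to 4 calls. With the replicate block, 3 members and 110 of all entries were called, against 108 without it, and it changed no call among the members named. Libraries of the same number share only a number, as no source pairs them, and their deviations correlated at 0.209. Over all entries, leaving out a library gave 44 to 132 calls. Directions turned for members near 0. The log2 fold change of mir-669c was -0.0072 without a filter and ran from -0.047 to 0.26 without single libraries, that of mir-669l was 0.010 on the authors' scaling, 0.23 and 0.091 in limma with pseudocounts of 1 and 10, and -0.64 to 1.11 without single libraries, that of mir-669o ran from -0.55 to 0.88 and that of mir-466f-3 from -0.33 to 0.64. The summed ratio was 1.68 without mir-669c, an alternative added after the values were seen, and 1.36 to 1.61 without single libraries. For mir-297 it ran from 0.983, without the second Myo-EV library, to 2.15, without the first. Counting 1 entry per name turned the OB to BM ratio of the mir-467 sum from 1.40 to 0.896, and leaving out the mir-467a copies turned it to 0.781, while the EV to OB ratio moved from 0.169 to 0.345 and 0.413. With median-of-ratios scaling over the 6 libraries, 0 members were above both cells, as mir-669c fell below OB. The causes were not tested. At a mean value of 10, a member rests on about 10 counts per EV library.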

Other observations

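Among the 63 members too low for the test, the FFSS-Myo-EV mean was above the Myo-EV mean in 50, below it in 11 and equal in 2, which had no count in EVs. Of the 61 with a count, 82.0% were higher, against 52.7% of the 478 other entries under a mean of 10 with a count in EVs. With CPM these shares were 80.3% and 52.1%. Many of the 61 are copies of one name, such as those of mir-467a, and are not separate measurements. Without the filter, edgeR's quasi-likelihood test called 4 members, of which mir-466i and mir-467d were also called with it, while mir-466f-2 was lost. The other 2 are described here after their values were seen. The entry mir-467h, whose mature sequence opens with UAAGUGU in its seed, had 2 and 3.6 (Myo-EVs) and 12 and 13.3 (FFSS-Myo-EVs), on 2 to 12 counts, and 0.6 in OB and 0 in BM (log2 fold change 1.98, standard error 0.67, adjusted p = 0.0312 in that edgeR test). The cell libraries held 1 and 0 counts of it. The entry mir-466c-2 had 0 and 1.2 (Myo-EVs) and 6 and 11.1 (FFSS-Myo-EVs; log2 fold change 3.49, standard error 1.08, adjusted p = 0.0161 in the same test), a fitted value that rests on 1 count in Myo-EVs and depends on the prior count, while the near-copies mir-466c-1 and mir-466c-3 had at least 2 in every EV library. The entry mir-466q had 2 and 9.6 (Myo-EVs) and 11 and 11.1 (FFSS-Myo-EVs), above BM, at 2.4, in 3 of 4 libraries.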
